A study of Rattus norvegicus with 12 samples.

Results

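Messenger RNA of the sciatic nerve was compared with that of the cerebellum in young male Wistar rats. The comparison took every array whose label names the sciatic nerve, 4 in all, and every array whose label names the cerebellum, also 4, which made 8 of the 12 arrays of the series. The 8 arrays formed 4 groups of 2 replicates: nerve and cerebellum of rats given saline by mouth, and nerve and cerebellum of rats given acrylamide at 30 mg/kg a day by gavage. Acrylamide is a small reactive monomer that damages long axons. The series text gives 21 days of dosing, whereas the sample labels place collection 21 days after treatment and give an age of 25 days at its start. Each array carried RNA pooled from 2 rats, so the spread between arrays is a spread between pools, and the labels do not say whether nerve and cerebellum came from the same animals. The nerve samples came from the right and left sciatic nerves. Both tissues of a treatment received the same agent, so treatment was held as a block and the tissue difference is an average over saline and acrylamide rats.

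The sciatic nerve is a bundle of long axons whose cell bodies lie in the spinal cord and in the dorsal root ganglia. Most of its messenger RNA therefore comes from Schwann cells, which wrap the axons and make compact myelin, and from the fibroblasts, perineurial cells, vessels and fat that surround them. The cerebellum is packed with the cell bodies of granule neurons, together with Purkinje neurons, inhibitory interneurons, Bergmann glia, astrocytes and oligodendrocytes, the cells that make myelin in the brain and spinal cord. In whole tissue, fewer cells of a type and less RNA per cell cannot be told apart.

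Prx, Scn7a, Neurod1 and Gabra6 differed widely between the tissues, and their promoter sequences are printed here because the first pair was far higher in nerve and the second pair far higher in cerebellum. The sequences are those of RefSeq on assembly GRCr8, from 250 bases before to 50 bases after the annotated start of transcription, 5′ to 3′ on the strand of the gene, with every CG dinucleotide in capitals. Prx lies at chr1:91914171-91914470 (plus strand), Scn7a at chr3:71846235-71846534 (minus strand), Neurod1 at chr3:84770405-84770704 (minus strand) and Gabra6 at chr10:27327185-27327484 (minus strand).
Prx: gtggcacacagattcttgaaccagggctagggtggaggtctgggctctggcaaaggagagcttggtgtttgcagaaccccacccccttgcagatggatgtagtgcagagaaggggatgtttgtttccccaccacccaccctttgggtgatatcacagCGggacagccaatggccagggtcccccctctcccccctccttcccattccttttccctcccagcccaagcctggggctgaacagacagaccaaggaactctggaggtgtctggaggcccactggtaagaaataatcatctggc
Scn7a: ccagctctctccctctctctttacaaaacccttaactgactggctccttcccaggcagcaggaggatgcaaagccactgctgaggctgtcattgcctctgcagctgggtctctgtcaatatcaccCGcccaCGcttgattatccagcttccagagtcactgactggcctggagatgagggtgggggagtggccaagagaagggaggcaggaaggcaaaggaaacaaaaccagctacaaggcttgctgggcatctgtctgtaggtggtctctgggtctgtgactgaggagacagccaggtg
Neurod1: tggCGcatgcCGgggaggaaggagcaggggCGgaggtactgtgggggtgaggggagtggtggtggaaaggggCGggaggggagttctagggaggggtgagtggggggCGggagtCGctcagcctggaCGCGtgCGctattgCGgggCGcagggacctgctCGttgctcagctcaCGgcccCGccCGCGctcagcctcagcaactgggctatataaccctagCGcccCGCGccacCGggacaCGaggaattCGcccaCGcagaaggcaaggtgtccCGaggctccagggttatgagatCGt
Gabra6: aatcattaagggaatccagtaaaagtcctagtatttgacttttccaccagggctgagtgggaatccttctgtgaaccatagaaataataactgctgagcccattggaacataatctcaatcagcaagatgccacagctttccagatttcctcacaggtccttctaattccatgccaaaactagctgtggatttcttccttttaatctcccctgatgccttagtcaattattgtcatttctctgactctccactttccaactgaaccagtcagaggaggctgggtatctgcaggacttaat
The Prx window held 1 CG, the Scn7a window 2, the Neurod1 window 25 and the Gabra6 window 0. A window rich in CG dinucleotides was thus seen for 1 of the genes read in cerebellum and not for the other. Over the 9134 of 11004 tested genes that had a promoter in the table, the median was 21 CG dinucleotides. Genes over 4-fold higher in nerve had a median of 15 (790 of 1033 matched), genes over 4-fold lower had 19 (657 of 862 matched), and genes within 2-fold had 22 (4939 of 5756 matched). Windows with at most 5 CG dinucleotides made up 20.8% of the genes over 4-fold higher in nerve and 14.8% of those over 4-fold lower. They made up 6.11% of the genes within 2-fold, 9.63% of all tested genes and 41.9% of the 27457 promoters in the table. These shares are a description of sequence and were not tested.

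Signals are given below in arbitrary units, for each tissue in the order saline replicate 1, saline replicate 2, acrylamide replicate 1 and acrylamide replicate 2. Prx codes for periaxin, a protein of the Schwann cell membrane around myelin. Its signal was 19743, 25094, 19666 and 18215 in the nerve and 53.5, 46.6, 70.5 and 47.1 in the cerebellum. Pmp2, a fatty acid-binding protein of compact peripheral myelin, read 12986, 18342, 13265 and 15639 in the nerve and 11.9, 7.94, 17.0 and 14.4 in the cerebellum. All nerve arrays carried both Schwann cell markers and no cerebellum array had either above 110, the signal used throughout as the lower limit of a usable reading.

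The markers of granule neurons behaved differently on the 2 nerve replicates. Neurod1, a transcription factor of granule neurons, read 13515, 16144, 13596 and 13496 in the cerebellum and 2140, 174, 2585 and 116 in the nerve. Gabra6, the GABA-A receptor subunit of granule neurons, read 13645, 13500, 12267 and 12577 in the cerebellum and 1882, 146, 2537 and 145 in the nerve. Both replicate 1 arrays of the nerve were high for these genes and both replicate 2 arrays were low. A further 125 probe sets were chosen for lying above 2000 on every cerebellum array and below 110 on both nerve replicate 2 arrays, which fixes their low level on replicate 2. On the replicate 1 arrays, which the choice did not use, their median signal was 9.82% of the cerebellum mean (saline) and 13.2% (acrylamide), and 124 and 125 of them exceeded 110. Both nerve replicate 1 arrays thus carried cerebellar transcripts under a nerve label, for which the labels give no reason. Lists of cerebellar genes, and the cerebellar genes called lower in nerve, are therefore given below with the 4 nerve arrays and again with the nerve replicate 2 arrays alone.

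**Figure D1:**
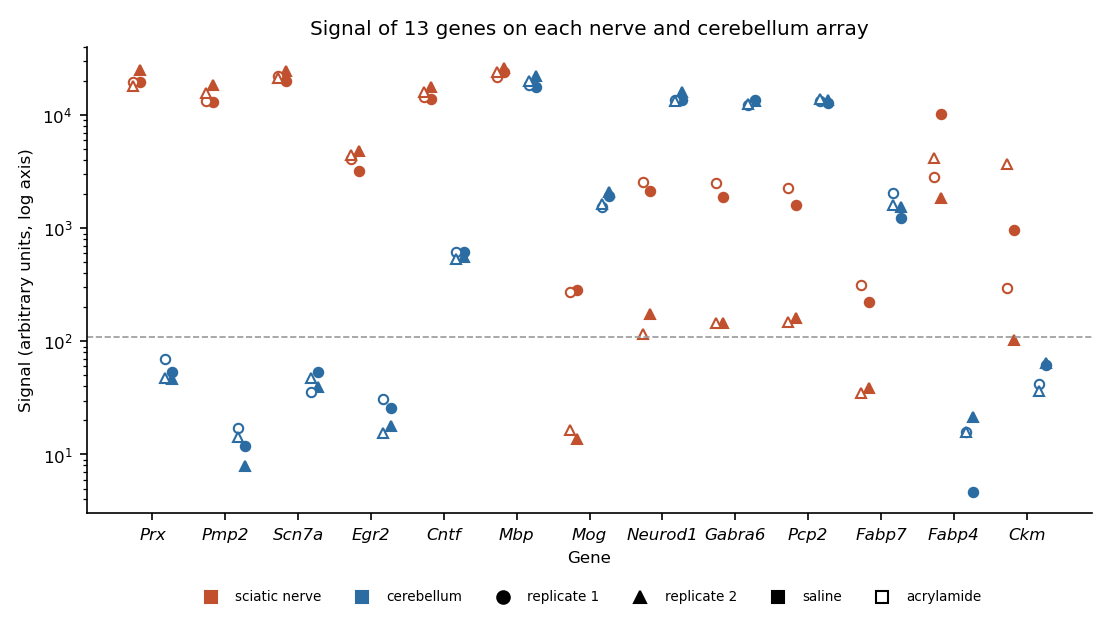
Signal (arbitrary units, log axis) of 13 genes on each of the 8 arrays, with colour for tissue, shape for replicate and filled or open points for saline or acrylamide; the dashed line marks a signal of 110. Prx, Pmp2 and Scn7a lay between 12986 and 25094 on the nerve arrays and below 110 on all 4 cerebellum arrays, while Neurod1, Gabra6 and Pcp2 were high on both nerve replicate 1 arrays and low on both nerve replicate 2 arrays.

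The tissues differed across a large part of the array. A probe set is called different here when its log2 difference, nerve minus cerebellum on the scale log2(signal + 16), was at least 1 in size with a Benjamini-Hochberg adjusted p under 0.05 in limma. Of 20812 probe sets tested, 3713 (17.8%) were higher in nerve and 4225 (20.3%) were lower, 38.1% in all; in 73.5% every array of one tissue lay above every array of the other. More than 16-fold differences were found for 266 probe sets in the direction of the nerve and for 262 in the direction of the cerebellum. At the other end, the 95% confidence interval of 10311 probe sets (49.5%) lay wholly within a 2-fold difference. Taken as genes, with 1 probe set each, 2299 of 11004 were higher in nerve (20.9%), 1841 were lower (16.7%), 37.6% in all, and 5756 lay within 2-fold (52.3%). The arrays of the tissues did not overlap in 75.4% of genes. Counts of gene lists below are to be read against these shares. On the nerve replicate 2 arrays alone, 3644 of the 3713 higher calls and 4098 of the 4225 lower calls held, and 215 higher and 287 lower calls were added.

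All 7938 calls had the same direction in saline rats and in acrylamide rats taken separately. The calls were made on these same arrays together, so this agreement follows largely from the call rule. The median log2 difference over all tested probe sets was -0.14 and became 0.03 when each array was centred on its median. Small differences therefore depend on the scaling. For some bright genes given below, differences larger than these medians also changed sign with quantile normalization. The median standard error was 0.12. A dim reading understates a difference on this scale. Folds are ratios of averages taken on the log2 scale. Where nerve arrays are unequal, such a fold exceeds the ratio of the mean signals for genes lower in nerve. For genes higher in nerve it falls short of that ratio. Folds are written as "at least" when every array of the tissue with less signal was under 110, with those arrays counted as 110. Where only some of those arrays were under 110, the log2 difference is given and no fold.

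**Figure D2:**
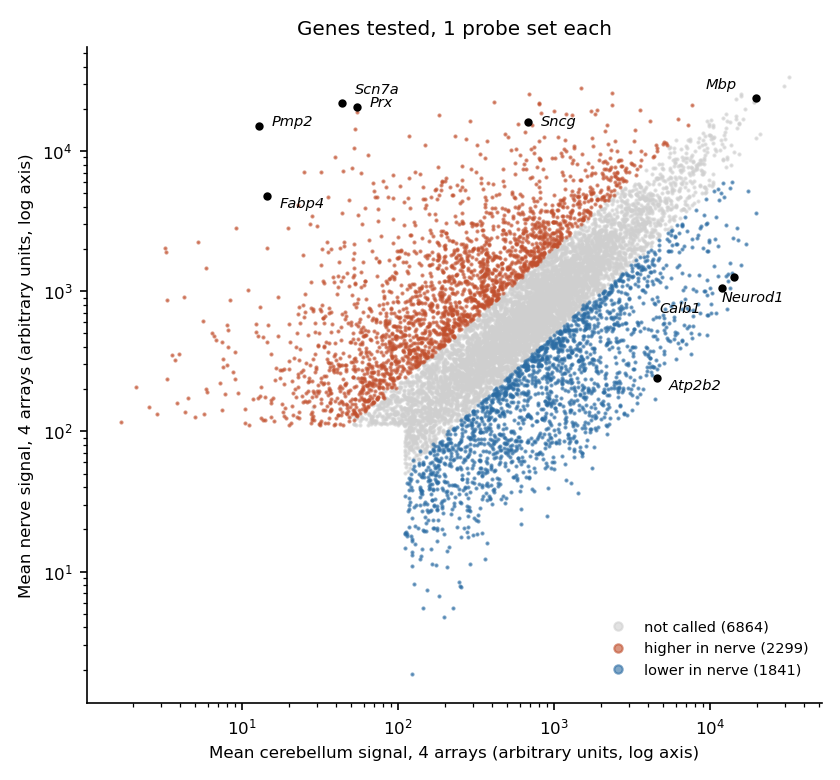
Mean signal over the 4 nerve arrays against the mean over the 4 cerebellum arrays (arbitrary units, log axes) for 11004 genes, 1 probe set each; orange points were called higher in nerve (2299), blue points lower (1841) and grey points were not called. Prx, Pmp2, Scn7a and Fabp4 lay far to the upper left, and Neurod1 and Calb1 to the lower right.

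The largest differences toward the nerve, beyond Pmp2, Scn7a and Prx, were those of Mlip, Sfrp5 and Myoc. Mlip, a protein that binds lamin, read 18178, 21926, 17404 and 18880 in the nerve and from 40.2 to 67.7 in the cerebellum, at least 151-fold higher. Sfrp5, a secreted Wnt antagonist, was at least 114-fold higher, and Myoc, the secreted protein myocilin, at least 55.5-fold. Sema3b, a secreted guidance cue, was at least 83.1-fold higher. No cerebellum array had any of these 4 genes above 110.

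**Figure D3:**
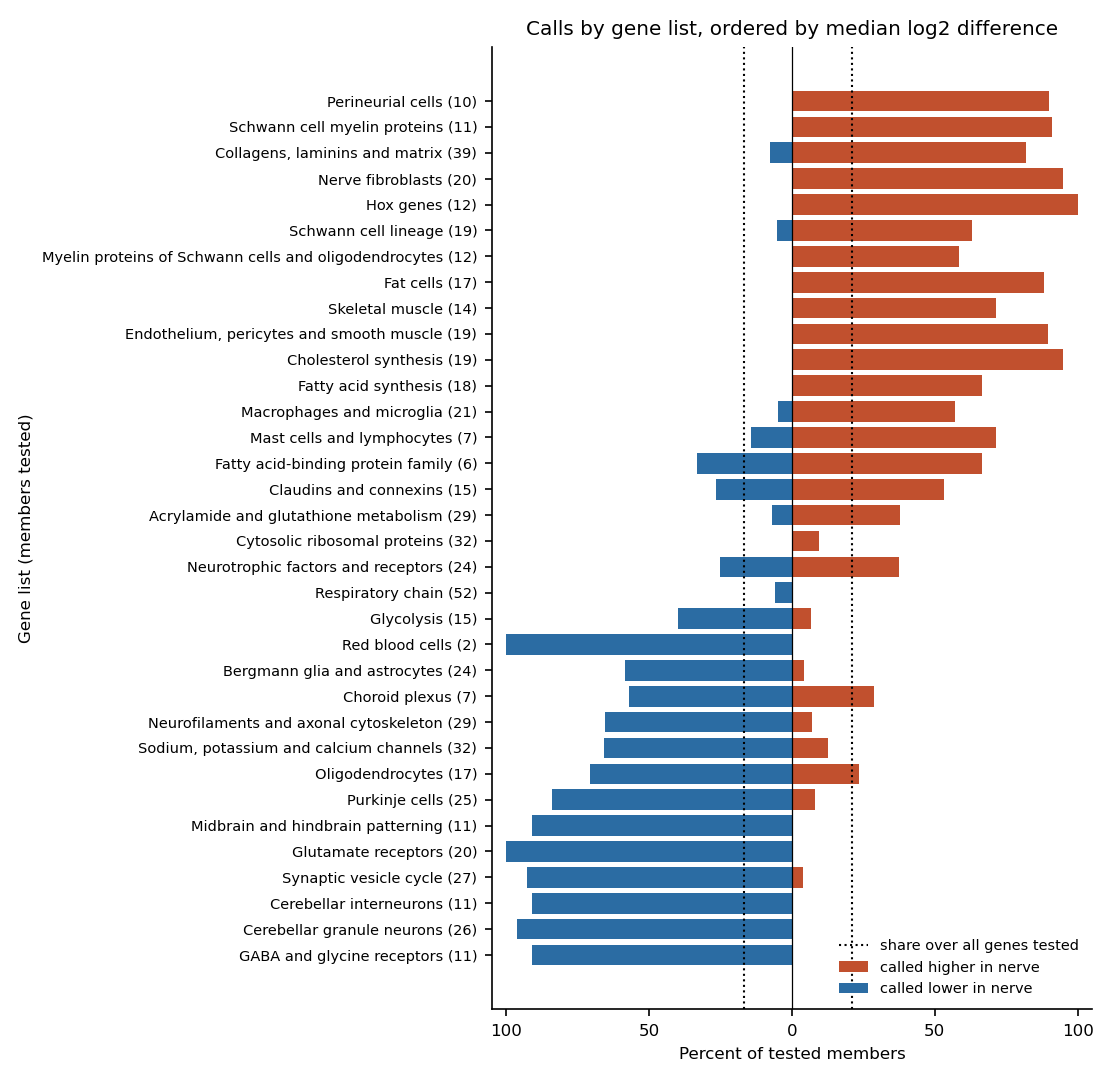
Percent of the tested members of each of 34 gene lists called higher (orange, to the right) or lower (blue, to the left) in nerve, ordered by median log2 difference, with the number of members tested in parentheses; dotted lines mark the shares over all genes tested (20.9% higher, 16.7% lower). Lists of nerve sheath, myelin, matrix and lipid synthesis genes were mostly orange and lists of neurons, synapses and receptors mostly blue.

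Genes of peripheral myelin were nearly all higher in nerve. Of 11 tested peripheral myelin genes, 10 were higher in nerve and 0 were lower, with a median log2 difference of 4.22 against -0.01 over all genes; 4 of the 11 passed the signal limit through the nerve only. Pmp2 differed by 9.03 ± 0.14 (SE; adjusted p = 5.16e-09), at least 118-fold, and Prx by 8.20 ± 0.14 (adjusted p = 6.46e-09), at least 163-fold. Pmp22, a structural protein of compact peripheral myelin, read 28299, 31477, 24192 and 27888 in the nerve and 1628, 1447, 1499 and 1347 in the cerebellum, an 18.7-fold difference (log2 4.22 ± 0.07, adjusted p = 7.01e-09). Its lowest nerve reading lay far above its highest cerebellum reading. Dhh codes for desert hedgehog, the Schwann cell signal that organises the nerve sheath. It read 2877, 3817, 3480 and 3549 in the nerve and 72.5, 15.4, 12.0 and 12.2 in the cerebellum, at least 27.2-fold higher in nerve. Cldn19, a claudin of Schwann cell membranes, was at least 34.8-fold higher (log2 6.21 ± 0.34). Nfasc was the member not called, at a log2 difference of 0.33, and lay within 2-fold; neurofascin is made both by axons and by the glia around them.

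Myelin genes that Schwann cells and oligodendrocytes share were mixed. Of 12 tested, all above 110 in both tissues, 7 were higher in nerve, 0 were lower and 3 lay within 2-fold. Mal, a proteolipid of myelin membranes, read 16324, 21410, 16549 and 18226 in the nerve and 1174, 1350, 1307 and 1340 in the cerebellum, 13.8-fold higher in nerve. Cryab, a small heat shock protein, was 9.88-fold higher, the tetraspanin Cd9 8.99-fold and plasmolipin (Pllp) 8.57-fold. Mbp, the basic protein of myelin in both tissues, read 23960, 26094, 21840 and 24080 in the nerve and 17813, 22118, 18408 and 19962 in the cerebellum. These arrays overlapped, and the log2 difference of 0.30 ± 0.08 lay within 2-fold, although 2 other Mbp probe sets gave 2.04 and 0.84. With quantile normalization the Mbp difference was -0.14. Mag, the adhesion molecule of the innermost myelin wrap, differed by 0.74 ± 0.12. Cnp, the cyclic nucleotide phosphodiesterase of myelin, differed by 0.98 ± 0.10, just short of the 2-fold limit, and its other probe set gave 1.18.

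Schwann cell lineage genes were higher in nerve for 12 of 19 tested and lower for 1; 6 of the 19 passed the signal limit through the nerve only. Scn7a, a sodium channel-like protein, read 20138, 24868, 22408 and 21236 in the nerve and 53.2, 39.4, 35.7 and 47.5 in the cerebellum, at least 175-fold higher in nerve (log2 8.54 ± 0.11, adjusted p = 2.86e-09). Egr2, the transcription factor that switches on myelination in Schwann cells, read 3237, 4832, 4071 and 4440 in the nerve and 25.8, 18.0, 31.2 and 15.6 in the cerebellum, at least 32.7-fold higher. No nerve array overlapped a cerebellum array for either gene. Sox10, which Schwann cells and oligodendrocytes share, was 8.06-fold higher (log2 3.01 ± 0.15), and Pou3f1, a factor of Schwann cells about to myelinate, at least 4.55-fold. Erbb2 and Erbb3 form the receptor through which Schwann cells read axonal neuregulin, and both were called higher, at log2 differences of 3.84 and 2.82. Tfap2a was the lower member, at a log2 difference of -2.49 over the 4 nerve arrays and -2.75 on replicate 2. It read 8.28, 8.49, 29.4 and 5.58 in the nerve and 166, 126, 129 and 138 in the cerebellum, where it is known from interneuron precursors.

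Genes of the sheaths and matrix of the nerve were also mostly higher. Of 10 tested perineurial genes 9 were higher, of 20 fibroblast genes 19, and of 39 genes of collagens, laminins and other matrix 32, against 3 lower in the last list and 0 in the others. Members that passed the signal limit through the nerve only numbered 3, 7 and 7 in these lists. Itgb4, the integrin that anchors cells to laminin, read 12457, 13511, 11688 and 13483 in the nerve and 133, 101, 124 and 113 in the cerebellum (log2 difference 6.58 ± 0.09, adjusted p = 4.03e-09). Cldn1, the claudin of the perineurial barrier, read 1910, 1412, 1813 and 2572 in the nerve and 81.2, 116, 97.9 and 95.1 in the cerebellum, a log2 difference of 4.07 ± 0.17. Among fibroblast genes, the proteoglycan decorin (Dcn) read 24594, 19008, 20544 and 25434 against 414, 348, 445 and 436, a 52.4-fold difference. In each of these 3 genes the arrays of the tissues were far apart.

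Collagen and laminin chains followed the same direction. Col1a1, a chain of the main fibrillar collagen, was 27.6-fold higher in nerve (log2 4.79 ± 0.17), Col5a3 at least 48.6-fold and Lama2, the laminin chain of the Schwann cell basement membrane, 20.1-fold. The laminin chain Lamb1 differed by 5.66 ± 0.15. Mfap5, a protein of elastic microfibrils, was at least 71.8-fold higher and Igfbp6, an IGF-binding protein of fibroblasts, 67.2-fold. Col9a1 had the widest spread of these, with 2028, 1189, 1029 and 3851 in the nerve and 2.74, 2.04, 3.88 and 4.13 in the cerebellum. The lower members included matrix of the brain, namely tenascin R (Tnr), at least 4.96-fold lower, and brevican (Bcan), at a log2 difference of -3.50. The laminin chain Lama1, at -1.04, was also lower. Without nerve replicate 1, Tnr and Bcan were at least 4.96-fold and at least 10.5-fold lower, and Lama1 differed by -1.17.

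Enzymes of cholesterol synthesis were higher in nerve almost throughout, with 18 of 19 tested members called higher, 0 lower and a median log2 difference of 2.04. All 19 lay above 110 in both tissues. Myelin is rich in cholesterol, which its glia largely make themselves. Nsdhl, a sterol dehydrogenase late in the pathway, read 3594, 5096, 3004 and 3497 in the nerve and 521, 518, 460.4 and 515 in the cerebellum, 7.21-fold higher (log2 2.85 ± 0.12, adjusted p = 3.23e-07). Acat2 was 7.15-fold, Tm7sf2 6.52-fold and Dhcr7, which makes the last step to cholesterol, 6.34-fold higher. Srebf2, which codes for the pathway's transcription factor, was the exception, at 0.23 and within 2-fold. The summed signal of the list on nerve saline replicate 2 was 519% of the cerebellum mean and on the other 3 nerve arrays 345% to 382%.

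Fatty acid synthesis genes were higher for 12 of 18 tested and lower for 0, with 5 within 2-fold and 1 above 110 in nerve only. Scd, a desaturase that makes monounsaturated fatty acids, read 2900, 1864, 1854 and 2368 in the nerve and 225, 157, 169 and 156 in the cerebellum, 11.6-fold higher. Its relative Scd2 differed by 0.71 ± 0.04, from 24969 to 26927 in the nerve and from 15172 to 16301 in the cerebellum. The other Scd2 probe sets gave 1.31, 1.25 and 0.84. The elongase Elovl1 was 6.18-fold higher. Thrsp, a regulator of fat synthesis in adipose tissue, read 5166, 406, 790 and 1288 in the nerve and 271, 341, 222 and 215 in the cerebellum, and the difference of 2.17 ± 0.65 (adjusted p = 0.0144) was not called on the saline arrays alone. Fat cell genes were spread over the nerve arrays in the same way, as the next values show.

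Genes of fat cells and of skeletal muscle varied widely between nerve arrays. Of 17 tested fat cell genes 15 were higher in nerve and 0 lower, 10 of the 17 having passed the signal limit through the nerve only. Their summed signal on the nerve arrays was 63249, 19813, 21811 and 27752, against 3495 to 3783 on the cerebellum arrays. Adipoq, the adipocyte hormone adiponectin, read 4871, 876, 1157 and 1757 in the nerve and 45.3, 58.0, 40.3 and 64.7 in the cerebellum. Fabp4, the member of the fatty acid-binding family typical of adipocytes, read 10281, 1857, 2855 and 4222 in the nerve and 4.68, 21.3, 15.8 and 15.7 in the cerebellum, at least 31.1-fold higher. Nerve saline replicate 1 was the highest array for both genes and for the list, and the tissues did not overlap. Without nerve replicate 1, Fabp4 remained at least 22.4-fold higher and 15 of the 17 genes were called.

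Of 14 tested muscle genes 10 were higher and 0 lower, 11 of the 14 having passed through the nerve only. Their summed signal was 10562, 4017, 6843 and 31996 on the nerve arrays and 4215 to 6398 on the cerebellum arrays, so that nerve saline replicate 2 lay below every cerebellum array and nerve acrylamide replicate 2 far above. Ckm, the creatine kinase of muscle, read 971, 103, 298 and 3696 in the nerve and 61.8, 63.9, 42.4 and 36.4 in the cerebellum. Myl11, a light chain of fast muscle myosin, read 564, 33.7, 153 and 3308 in the nerve and 22.7, 5.04, 10.4 and 5.67 in the cerebellum. Their log2 differences of 3.21 ± 0.91 (adjusted p = 0.0111) and 3.77 ± 1.08 (adjusted p = 0.0117) fell to 2.12 and 2.57 on the saline arrays alone, where neither was called. Myh4 and Atp2a1 also lost their calls on the saline arrays. Acta1, the actin of muscle, was called at 2.61 ± 0.91, and its call ended when nerve saline replicate 1 was left out (2.20). The Acta1 call also ended when either cerebellum acrylamide array or cerebellum saline replicate 2 was left out. It was likewise lost on the saline (1.70) and acrylamide (3.52) arrays alone, with a robust variance model and in a fit of all 12 arrays. How much muscle or fat lay on each nerve sample was not recorded in the labels, and its part in these differences was not tested.

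Vessel genes were more even over the nerve arrays. Of 19 tested genes of endothelium, pericytes and smooth muscle, 17 were higher in nerve and 0 lower, and 18 of the 19 lay above 110 in both tissues. Tagln, an actin-binding protein of smooth muscle, was 15.4-fold higher, Acta2 8.31-fold and the endothelial adhesion molecule Pecam1 7.82-fold. Cav1, the coat protein of caveolae, read 15154, 16849, 13949 and 15741 in the nerve and 726, 728, 680 and 757 in the cerebellum, 20.9-fold higher.

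Macrophage genes were higher in nerve for 12 of 21 tested and lower for 1. On nerve replicate 2 alone 11 were higher and 2 lower, and the median log2 difference moved from 1.64 to 1.24. Members that passed the signal limit through the nerve only numbered 4, and through the cerebellum only 3. Cd74, the invariant chain of class II antigen presentation, read 7066, 3005, 4384 and 5258 in the nerve and 469, 319, 790 and 836 in the cerebellum, 8.16-fold higher. Lyve1, a receptor of macrophages around vessels, was at least 5.90-fold higher. The lower member over the 4 nerve arrays was Cx3cr1, the fractalkine receptor of microglia, at -1.04 ± 0.16. Its call ended under 8 of the alternative settings, among them nerve replicate 2 alone (-0.97). The call also ended without nerve saline replicate 1 (-0.99), without nerve saline replicate 2 (-0.996) and without cerebellum saline replicate 2 (-0.96). The microglial genes P2ry12 and Tmem119 differed by 0.24 and 0.04 and were not called. Of 7 tested mast cell and lymphocyte genes 5 were higher in nerve and 1 lower. Among the 7, 6 passed the signal limit through the nerve only and 1 through the cerebellum only, so this count is no result in itself. With no limit on signal, 7 of the 12 on the arrays were higher and 1 lower. Mast cell proteases Cma1, Tpsab1 and Cpa3 were at least 2.77-fold, at least 1.54-fold and at least 3.96-fold higher in nerve. Kit, the receptor of mast cells that cerebellar interneurons also carry, was at least 6.14-fold lower, over 4 arrays and on replicate 2. Both tested red cell genes were lower in nerve, 1 of them having passed the signal limit through the cerebellum only. The call of Alas2, the first enzyme of haem synthesis in red cells (-1.21), ended without nerve saline replicate 2 (-0.86), on the acrylamide arrays alone (-0.81) and with a pseudocount of 64 (-0.86). Haemoglobin beta (Hbb) read 3832, 1741, 3547 and 2899 in the nerve and 8060, 11960, 8794 and 8436 in the cerebellum, 3.18-fold lower in nerve and 4.07-fold on replicate 2.

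Hox genes, which record position along the body axis and are active behind the hindbrain's first segments, were read in nerve and hardly at all in cerebellum. Of 22 on the arrays, 12 were tested, and all 12 passed the signal limit through the nerve only, so their number is no result in itself; with no limit on signal, 16 of the 22 were called higher and 0 lower. Hoxd8 read 1041, 1340, 1027 and 1146 in the nerve and 86.8, 44.3, 58.8 and 21.6 in the cerebellum, at least 9.11-fold higher. Hoxa10 read 580, 342, 501 and 614 in the nerve and 4.61, 4.36, 20.4 and 19.4 in the cerebellum. Hoxc5 read 236, 169, 185 and 245 in the nerve and 1.29 to 3.30 in the cerebellum. No array of the nerve overlapped an array of the cerebellum in any of these.

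The reverse held for genes that pattern the midbrain and hindbrain. Of 11 tested, 10 were lower in nerve and 0 higher, also on replicate 2 alone, 7 of the 11 having passed through the cerebellum only. En2, the engrailed factor of the cerebellar anlage, read 3710, 3325, 3528 and 3634 in the cerebellum and 243, 49.8, 390 and 53.6 in the nerve, a log2 difference of -4.59 ± 0.57, and it was at least 28.3-fold lower on nerve replicate 2. Pax6, a factor of granule neurons and their precursors, differed by -4.31 and was at least 23.6-fold lower on replicate 2. Foxp2 was the exception, at 0.34 and within 2-fold.

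Genes of granule neurons and Purkinje cells were mostly lower in nerve. Of 26 tested granule neuron genes 25 were lower and 0 higher, and of 25 Purkinje cell genes 21 and 2. Members that passed the signal limit through the cerebellum only numbered 7 and 6. Of 11 tested interneuron genes 10 were lower and 0 higher, but 10 of the 11 passed through the cerebellum only, so this count is no result in itself; with no limit on signal, 11 of the 14 on the arrays were lower. On nerve replicate 2 alone 25, 21 and 10 were lower, while the median log2 difference moved from -3.26 to -4.02 for granule neurons, from -2.73 to -3.33 for Purkinje cells and from -3.18 to -3.48 for interneurons. Both nerve replicate 1 arrays lay above both replicate 2 arrays in 22 of the 26 granule neuron genes and 22 of the 25 Purkinje cell genes.

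Neurod1 was 23.1-fold lower over the 4 nerve arrays (log2 -4.53 ± 0.97, adjusted p = 0.00263) and 89.6-fold lower on replicate 2 alone (log2 -6.49 ± 0.11). Gabra6 was 21.8-fold lower over 4 arrays and 80.5-fold lower on replicate 2. Its second probe set differed by -4.79 and, on replicate 2, by -6.33. Cbln1, the cerebellin that granule neurons release onto Purkinje cells, read 10220, 11261, 10207 and 11505 in the cerebellum and 1130, 98.9, 1485 and 91.6 in the nerve. The log2 difference was -4.82 ± 0.88, and on replicate 2 it was at least 85.7-fold lower. Pcp2, a Purkinje cell protein, read 12945, 13646, 13242 and 13909 in the cerebellum and 1597, 162, 2294 and 148 in the nerve, 23.4-fold lower and 78.7-fold on replicate 2. Calb1, the calcium buffer calbindin of Purkinje cells, differed by -4.57 ± 0.99 and by -6.55 ± 0.09 on replicate 2. The differences of these 5 genes were larger on replicate 2 alone, and every nerve array lay below every cerebellum array. Gad1, the enzyme that makes GABA, was 24.0-fold lower and 72.1-fold on replicate 2.

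The exceptions were few. Reln, the reelin that granule neurons secrete, differed by 0.03 and lay within 2-fold. Among Purkinje cell genes, Ebf2 and Plcb3 were higher in nerve, at 2.72 ± 0.20 and 1.42 ± 0.18. Ebf2, a transcription factor also known from fat and bone precursors, read 257, 240.3, 253 and 401 in the nerve and 38.4, 23.4, 25.6 and 31.0 in the cerebellum. Foxp2 and Kitlg were not called, at 0.34 and 0.08.

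**Figure D4:**
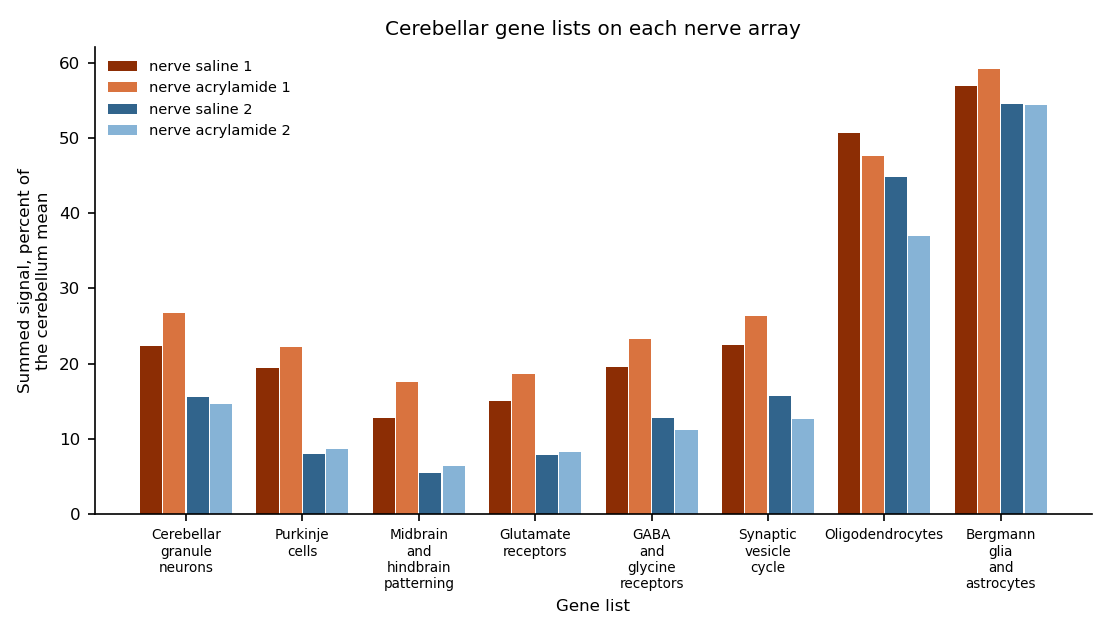
Summed signal of 8 lists of cerebellar genes on each of the 4 nerve arrays, as percent of the mean over the 4 cerebellum arrays (bars start at 0). In the Purkinje cell list the replicate 1 arrays reached 19.5% and 22.3% and the replicate 2 arrays 7.94% and 8.56%. In the list of Bergmann glia and astrocytes all 4 nerve arrays lay between 54.4% and 59.2%. Yet in 12 of the 24 members of that list both replicate 1 arrays lay above both replicate 2 arrays.

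Synapse and receptor genes were lower in nerve nearly without exception. Of 27 tested genes of the synaptic vesicle cycle 25 were lower and 1 higher, of 20 glutamate receptor genes 20 were lower, and of 11 GABA and glycine receptor genes 10 were lower. On replicate 2 alone the same numbers were called lower, 25, 20 and 10. The lists held 10, 8 and 4 members that passed the limit through the cerebellum only. Sv2a, a glycoprotein of synaptic vesicles, read 2217, 2171, 2194 and 2123 in the cerebellum and 148, 11.3, 205 and 20.3 in the nerve, a log2 difference of -4.82 ± 0.65, and was at least 17.4-fold lower on replicate 2. Slc17a7, the vesicular glutamate transporter of granule neurons, differed by -4.39 and was at least 25.0-fold lower on replicate 2. Gria2, the AMPA receptor subunit that limits calcium entry, differed by -4.26 and was at least 34.3-fold lower on replicate 2. Gabbr1, a GABA-B receptor subunit, was the member of the GABA and glycine list not called, at -0.68 over 4 arrays and -0.57 on replicate 2. Syngr1, a synaptogyrin, was the higher member at 3.69 ± 0.28, but its other probe set gave 0.94.

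Ion channels split between the tissues: 21 of 32 tested were lower in nerve and 4 were higher, over 4 nerve arrays and on replicate 2 alone. The signal limit was passed through the cerebellum only by 9 of the 32 and through the nerve only by 3. Kcnc1, a potassium channel of fast-spiking neurons, read 7304, 7850, 7746 and 7180 in the cerebellum and from 84.0 to 711 in the nerve, with both replicate 2 arrays below 110. The log2 difference was -4.84 ± 0.63, and Kcnc1 was at least 59.8-fold lower on replicate 2. The neuronal sodium channels Scn1a and Scn2a differed by -4.35 and -4.43, and were at least 24.1-fold and at least 27.6-fold lower on replicate 2. The higher members besides Scn7a were Scn9a (2.32), Cacna1c (2.10) and Cacna1h (2.37). Scn9a is a sodium channel of sensory and sympathetic neurons, whose cell bodies are outside the nerve. Kcna1 and Kcna2, potassium channels beside the node of Ranvier, differed by 0.58 and -0.21 and were not called.

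Genes of the axonal cytoskeleton were lower in nerve for 19 of 29 tested and higher for 2, over 4 nerve arrays and on replicate 2 alone. In both tissues 27 of the 29 lay above 110. Neurofilaments fill the axons of the nerve, while their messages are made in the cell bodies. Nefl, the light neurofilament chain, read 3406, 3263, 3208 and 2881 in the cerebellum and 626, 211, 786 and 419 in the nerve, 6.74-fold lower and 10.2-fold on replicate 2. Nefm, the medium chain, was 4.15-fold lower and 6.31-fold on replicate 2, and Nefh, the heavy chain, 11.9-fold and 23.6-fold. All 4 nerve arrays carried all 3 chains above 110. Ina, an intermediate filament of central neurons, differed by -4.45 and was at least 37.4-fold lower on replicate 2.

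Sncg and Prph went the other way. Sncg, gamma-synuclein, read 15420, 18016, 14178 and 16879 in the nerve and 226, 718, 987 and 795 in the cerebellum, 26.1-fold higher in nerve (log2 4.70 ± 0.36, adjusted p = 6.45e-06). Prph, the intermediate filament peripherin of sensory, motor and autonomic neurons, read 440.0, 364, 327 and 332 in the nerve and 47.2, 139, 83.5 and 41.0 in the cerebellum, a log2 difference of 2.13 ± 0.29. Sncb, the beta member of the synuclein family, was 18.3-fold lower and 38.5-fold on replicate 2.

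**Figure D5:**
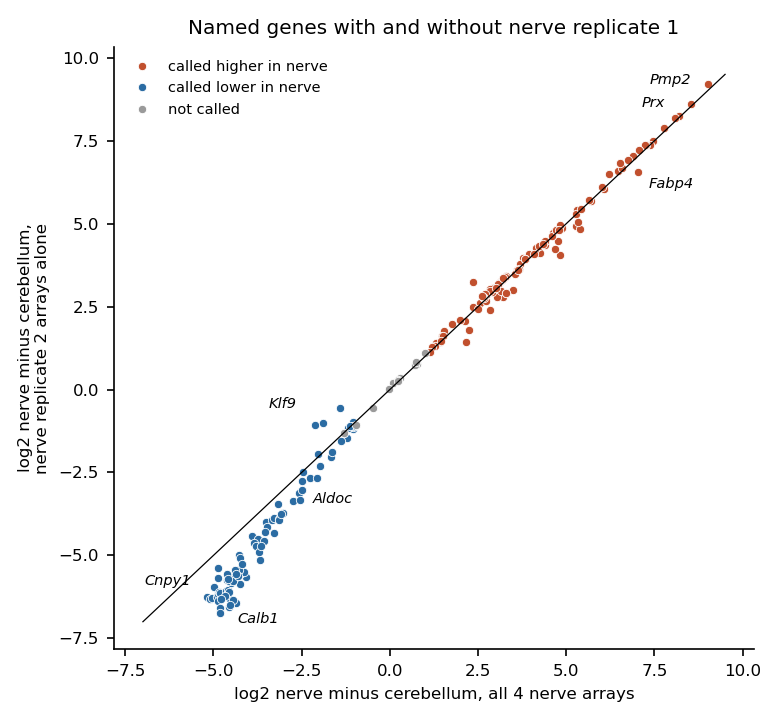
Log2 difference (nerve minus cerebellum) of the named probe sets with all 4 nerve arrays (horizontal axis) and with the nerve replicate 2 arrays alone (vertical axis); the line marks equal values and colours mark the call over all arrays. Genes called higher in nerve lay near the line, for example Prx at 8.20 and 8.26, and genes called lower lay mostly below it, for example Calb1 at -4.57 and -6.55.

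Brain glia were a less uniform group than brain neurons. Of 24 tested genes of Bergmann glia and astrocytes 14 were lower in nerve, 1 was higher and 6 lay within 2-fold. On nerve replicate 2 alone 16 were lower. Through the cerebellum only 3 of the 24 had passed the signal limit. Aqp4, the water channel of astrocyte endfeet, read 9523, 8767, 9457 and 9134 in the cerebellum and 1500, 93.3, 2362 and 87.2 in the nerve, a log2 difference of -4.36 ± 1.04, and was at least 73.3-fold lower on replicate 2. This probe set lost its call on the acrylamide arrays alone (-4.23, adjusted p = 0.059), where the replicate 1 and 2 nerve arrays differed most. Slc1a3, the glutamate transporter of Bergmann glia, was 12.5-fold lower and 26.6-fold on replicate 2, and Mlc1, a membrane protein of astrocyte endfeet, differed by -4.43 and was at least 21.0-fold lower on replicate 2. Glul (-0.77), Gja1 (-0.69), Ndrg2 (-0.71) and Sparcl1 (-0.65) were not called over the 4 nerve arrays. Hepacam, an adhesion molecule of glia, was the higher member and read 1644, 2782, 2044 and 2160 in the nerve and 676, 692, 732 and 774 in the cerebellum.

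Oligodendrocyte genes were lower in nerve for 12 of 17 tested and higher for 4, also on replicate 2 alone. Through the cerebellum only 4 of the 17 had passed the signal limit, and through the nerve only 1. Mog, a surface protein of central myelin, read 1934, 2106, 1547 and 1657 in the cerebellum and 286, 13.8, 274 and 16.3 in the nerve, a log2 difference of -4.24 ± 0.81, and was at least 14.4-fold lower on replicate 2. Mobp, a basic protein of central myelin, was 12.8-fold lower and 34.9-fold on replicate 2. The higher members were Aspa, the enzyme that splits N-acetylaspartate (9.20-fold), the proteoglycan Cspg4 (at least 6.87-fold), Ninj2 (1.12) and Bcas1 (1.14). Of choroid plexus genes, Ttr, the plexus thyroxine carrier, read 13811, 18039, 14536 and 16308 in the cerebellum and 2618, 337, 2918 and 261 in the nerve, 16.7-fold lower and 49.9-fold on replicate 2. The water channel Aqp1, also of the plexus, was 24.0-fold higher in nerve, and its other probe set gave a log2 difference of 2.36.

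Several gene families divided their members between the tissues. All 6 tested fatty acid-binding proteins were called, 4 higher and 2 lower, with 2 having passed through the nerve only. Besides Pmp2 and Fabp4, Crabp2 (3.38-fold) and Fabp5 (2.46-fold) were higher. Fabp7, the brain form made by Bergmann glia, read 1222, 1540, 2053 and 1611 in the cerebellum and 224, 38.9, 314 and 35.3 in the nerve, a log2 difference of -3.71 ± 0.61, and was at least 12.7-fold lower on replicate 2. Fabp3 differed by -3.04 and was at least 10.1-fold lower on replicate 2. Of 15 tested claudins and connexins 8 were higher and 4 lower. Among the 15, 4 had passed the signal limit through the nerve only and 3 through the cerebellum only. Cldn11, the claudin of central myelin, read 7164, 8013, 7302 and 6667 in the cerebellum and 1921, 957, 1686 and 694 in the nerve, 5.93-fold lower and 8.77-fold on replicate 2, whereas Cldn19 and Cldn1 were nerve genes. Gjb1, the connexin of myelin loops, was higher at 2.06, and Gjb6, an astrocyte connexin, at least 7.71-fold lower both over 4 arrays and on replicate 2.

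Growth factors and their receptors showed no common direction, with 9 of 24 tested higher, 6 lower and a median of 0.13. Members that passed the signal limit through the nerve only numbered 5, and through the cerebellum only 4. Cntf, ciliary neurotrophic factor of Schwann cells, read 13969, 17723, 14448 and 15984 in the nerve and 619, 556, 623 and 531 in the cerebellum, 25.9-fold higher (log2 4.70 ± 0.09, adjusted p = 1.04e-08). Fgf1 was 28.3-fold and Igf1 9.76-fold higher, the latter with 4400 on nerve saline replicate 1 and 1051 to 2571 on the other nerve arrays. Bdnf read 219, 213, 303 and 312 in the cerebellum and below 110 on every nerve array, at least 2.17-fold lower, over 4 arrays and on replicate 2. Fgf9 was 8.85-fold lower and 14.9-fold on replicate 2, and Nrg2 at least 3.54-fold lower in both cases.

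Acrylamide is cleared by conjugation to glutathione and by way of an epoxide. Of 29 tested genes of these routes 11 were higher in nerve against 2 lower, and 27 lay above 110 in both tissues. On nerve replicate 2 alone 12 were higher and 3 lower. Gsta4, a glutathione transferase for lipid aldehydes, read 3449, 4414, 3653 and 3360 in the nerve and 370.0, 389, 586 and 663 in the cerebellum, 7.39-fold higher. Gstp1 was 3.97-fold, Gstm2 5.59-fold and the microsomal epoxide hydrolase Ephx1 2.71-fold higher. Glutathione transferases are close relatives and their probe sets may read one another. The lower members over the 4 nerve arrays were Slc7a11 and Gstm1. Slc7a11, the cystine carrier, had a log2 difference of -1.99 (-2.29 on replicate 2). Gstm1 was 2.07-fold lower (2.26-fold on replicate 2). Its call ended with median centring (-0.88) and without nerve saline replicate 2 (-0.97).

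Genes of energy supply and protein synthesis differed little. Of 52 tested respiratory chain genes, all above 110 in both tissues, 43 lay within 2-fold, 3 were lower (6 on replicate 2 alone) and 0 were higher, with a median of -0.53 that was -0.68 with quantile normalization and -0.36 with median centring. The lower members were Ndufa4 (2.61-fold), Ndufc2 (2.06-fold) and Cyc1 (2.05-fold), of which the last pair lost their calls with median centring, Ndufc2 also without nerve acrylamide replicate 2 (-0.998). Of 32 ribosomal protein genes 29 lay within 2-fold and 3 were higher, with a median of 0.45 that was 0.23 with quantile normalization. Rpl22 was 2.44-fold higher, and Rpl41 and Rplp0 were called at 1.20 and 1.14 but not with quantile normalization. Glycolysis was the exception among these, with 6 of 15 lower and 1 higher. Aldoc, the brain aldolase of Purkinje cells and astrocytes, was 5.63-fold lower and 8.21-fold on replicate 2. Ldha, the lactate dehydrogenase chain of tissues that make lactate, read 5663, 6618, 5834 and 6938 in the nerve and 2331, 2216, 1905 and 2325 in the cerebellum, 2.84-fold higher.

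Some messages were abundant in both tissues and close in level. The mitochondrial transcripts COX1 and COX2, subunits of cytochrome oxidase, differed by 0.10 ± 0.11 and -0.03 ± 0.07. Cst3, the protease inhibitor cystatin C, read 22364, 24185, 19784 and 22732 in the nerve and 17392, 20902, 18614 and 19551 in the cerebellum, a difference of 0.22 ± 0.07. Rps29, a ribosomal protein, differed by 0.23 ± 0.04. The sign of these small differences depends on the scaling: with quantile normalization Cst3 and Rps29 differed by -0.20 and -0.22, and with median centring COX2 by 0.13. These genes were chosen as the brightest with a confidence interval within 2-fold, so their closeness follows from the choice.

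The tissue difference was not called different between saline and acrylamide rats for any probe set. In a limma fit of the 4 groups, 0 of 20812 probe sets had a tissue difference that differed between treatments at an adjusted p under 0.05. The smallest adjusted p was 0.99995, and 548 probe sets (2.63%) had an unadjusted p under 0.05. With 2 pools per group, a difference that missed the threshold was not shown to be absent. For cerebellar genes, the gap between nerve replicates 1 and 2 also entered the spread used by this fit. The SE of the difference between treatments was 2.11 for Neurod1 and 2.03 for Gabra6, against 0.26 for Prx. The smallest unadjusted p belonged to Nr1d1, a clock repressor, which read 185, 149, 599 and 622 in the nerve and 393, 388, 514 and 561 in the cerebellum. Both acrylamide arrays were higher than both saline arrays in each tissue, and the treatment difference was larger in nerve by 1.34 ± 0.19 on the log2 scale. Nr4a3, an early-response receptor, read 167, 85.8, 163 and 295 in the nerve and 1114, 920, 210.0 and 148 in the cerebellum. Macroh2a1, Ptdss2, Rasd2 and Sptssb followed, and none of the 6 passed the correction.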

How the data were processed

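Messenger RNA was measured on rat Affymetrix arrays, 8 of which (4 sciatic nerve, 4 cerebellum) entered these comparisons. The intensity values were deposited as signals per probe set; GCOS 1.1 is named per the submitters' processing notes, with no algorithm or scaling target stated there. All 12 arrays had 2% trimmed means between 500.124 and 500.151, as they would after scaling to a common mean. Precision is limited by how few arrays there are.

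Signals were used as log2(signal + 16). Of 31042 probe sets without controls, 436 had several gene symbols, 9780 had none and the others had 1. Probe sets with a mean above 110 in either tissue were fitted in limma 3.58.1 (R 4.3.3), nerve minus cerebellum with treatment as a block and an intensity trend in the variance, and p-values were adjusted over all of them by the Benjamini-Hochberg method. Every adjusted p given is from limma. A second limma fit tested whether the tissue difference differed between treatments. The scripts were tested on simulated data.

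Named genes were the 12 largest differences in each direction among called genes with non-overlapping arrays, the 4 largest of each of 34 lists with up to 2 called members against the majority, the tested fatty acid-binding family, the 4 markers, the 6 smallest p for treatment, the 6 brightest genes within 2-fold and up to 4 in each direction that moved most without nerve replicate 1. A gene with several probe sets is given by the brightest. Not every named gene is described in the text. The largest named difference toward the cerebellum was that of Cnpy1, at -5.19 over the 4 nerve arrays and -6.27 on replicate 2. Nefl, Nefm, Nefh, Pmp22, Mag, Cnp, Sox10, Slc1a3, Slc17a7, Gstp1, Ephx1, Acta1, Adipoq, Scn1a, Hoxc5, Bdnf, Cav1, Col1a1, Lama2 and other list members given with a log2 difference alone were chosen after their values were seen. The members and lists were chosen with earlier results of these data known. Alternatives changed the normalization, pseudocount, signal limit, variance model, block, call rule and arrays used. The spinal cord arrays were not used except in a fit of all 12 arrays.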

Additional observations from a re-analysis of the deposited data

Results flagged for a closer look

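In 383 checks of whether 1 of the 4 arrays of a tissue stood apart from the other 3, 13 did, where chance gives about 1 in 20. On the nerve arrays, saline replicate 2 was the high array for Ecscr (9087) and Art3 (9409.9), and acrylamide replicate 2 was the high array for Ebf2 (401). On the cerebellum arrays, acrylamide replicate 1 stood apart for Igfbp6 (113), Calb1 (11192), Sptbn4 (1897), Nsdhl (460.4) and the summed signal of the fat cell genes (3495). Acrylamide replicate 2 stood apart for Kit (909). Saline replicate 1 stood apart for Kcnc2 (1642) and Slc1a3 (14205), and saline replicate 2 for Neurod1 (16144) and Col1a1 (527). In each of these genes the arrays of the tissues did not overlap.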

How the results depend on the processing

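The counts of higher and lower calls changed by over 1.5 times under 3 settings. A mean above 110 in both tissues gave 2289 higher and 2439 lower, 1 probe set per gene gave 2299 and 1841, and an adjusted p alone gave 7080 and 8989. The number within 2-fold became 15706 with no signal limit, 5762 with 1 probe set per gene and 3972 with an interval of ±0.5. These settings test other numbers of probe sets or use another limit. With median centring 4284 were higher and 3592 lower, and with quantile normalization 3986 and 3834, so scaling turned the larger share from lower to higher. Leaving out each array in turn gave 3626 to 3780 higher, 4137 to 4308 lower, 9784 to 10228 within 2-fold and 0 calls of treatment. With the replicate block 3717 were higher, 4230 lower and 10349 within 2-fold; same-numbered arrays of the tissues correlated at 0.09 (saline) and 0.10 (acrylamide) and were not taken as pairs. No named gene changed direction under any alternative run where it was called; among all their values 51 lost a call and 14 gained one, most often Acta1, Cx3cr1, Dvl3, Ptdss2 and Cnp, and the cause was not tested. Two-replicate groups of pooled rats and dim readings under 110 limit all folds given.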

Other observations

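The gene families below were chosen after their values were seen. All 9 tested annexins, which bind membranes in the presence of calcium, were higher in nerve, among them Anxa1 at a log2 difference of 4.77, Anxa4 at 4.68 and Anxa2 at 4.24. Of 10 S100 calcium-binding proteins 5 were higher and 0 lower. S100a6 had a mean signal of 17991 in the nerve and 183 in the cerebellum (6.52), and S100a4 12888 and 232 (5.73), whereas S100b, a protein of both Schwann cells and astrocytes, differed by 0.64 and was not called. All 4 caveolins and cavins were higher, with a median of 4.19.

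Carbonic anhydrases went mostly the other way, with 6 of 8 lower, also on nerve replicate 2 alone. Car8, a Purkinje cell member, differed by -4.30 over the 4 nerve arrays and by -5.60 on replicate 2, and Car10 by -4.63 and -5.89. Car3, the form of fat and muscle, was higher at 6.64. All 3 Rbfox splicing factors and 3 of 4 plasma membrane calcium pumps were lower, with medians of -4.16 and -2.81 (-5.34 and -3.47 on replicate 2). Of 16 semaphorins 4 were higher and 4 lower, near the shares over all genes (20.9% and 16.7%), so the count says nothing particular of the family. They were Sema3b (7.27), Sema5a (4.41), Sema3c (4.35) and Sema3d (3.03) against Sema4d (-2.94, and -3.11 on replicate 2), Sema3e (-2.77 and -3.29), Sema4f (-1.83 and -1.91) and Sema4a (-1.49 and -1.94).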
